A study of Caenorhabditis elegans with 2 samples.

Results

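The two-pore potassium channel genes of Caenorhabditis elegans were examined for peaks of the homeodomain transcription factor UNC-42. Members were the protein-coding genes of Ensembl release 115 (assembly WBcel235, which is ce11) whose symbol is twk followed by a number, together with sup-9, egl-23 and unc-58. This gave 47 of 19973 protein-coding genes on the 6 nuclear chromosomes. A gene was called when a summit of the optimal peak set lay in its body or in the 2000 bp upstream of its 5′ end. The body and this upstream stretch are called the territory of the gene below. The optimal set is the list thresholded by the irreproducible discovery rate (IDR), a measure of reproducibility between replicates. By signal it equals the 4780 strongest entries of the list pooled over replicates. A single peak in it therefore need not have a match in each replicate list.

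The data are chromatin immunoprecipitation sequencing (ChIP-seq) peak lists from whole hermaphrodite late embryos of strain OP173, taken 3 hours after egg bleaching. The strain carries UNC-42 with a C-terminal GFP-FLAG tag, and the labels disagree on the antibody, which is one against GFP in their description and names unc-42 in the antibody entry. The labels name neither the promoter of the transgene nor its copy number. There were 2 biological replicates of 1 group and no second condition, and worms without the tag were not analysed here, so specificity for the factor was not tested. The embryo is a mixture of cells, so strong occupancy in few cells and weak occupancy in many cannot be told apart.

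The optimal set held 4780 peaks, the relaxed pooled list 23778 entries, the replicate 1 list 22676 and the replicate 2 list 20932. The relaxed lists were made as input for IDR and hold background regions too. Signal values are the peak caller's own, on a separate scale in each list, so they are used here to describe and rank peaks within a list. Read depth is unknown.

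Two-pore potassium channels carry the leak current that holds the resting potential of neurons and muscles near the potassium equilibrium. Each subunit has a pair of pore-forming loops, and subunits assemble as dimers. C. elegans has an unusually large family of them. UNC-42 is known for specifying the identity of sensory neurons, interneurons and motor neurons, among them command interneurons of the locomotion circuit.

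The sequences under 5 summits are printed as examples and were not chosen to represent the family. They are those of the strongest summits of twk-26 and twk-13, which stand for the high end of the family and lie outside annotated UTRs, of twk-2, which holds the only GA repeat, and of sup-9 and twk-40, channels with known roles. Each run is read on the strand of the gene from WBcel235 and reaches 100 bases to each side of the summit. The place named for a run, intron or upstream, is that of its summit. The bases around the summit were not classed and can include exon sequence. The sup-9 run stops at the gene's 5′ end. Capitals mark each TAAT on either strand, the core of homeodomain sites, and GA or TC repeats of 8 bases or more.

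twk-26, intron, chrX:3051401-3051601, minus strand: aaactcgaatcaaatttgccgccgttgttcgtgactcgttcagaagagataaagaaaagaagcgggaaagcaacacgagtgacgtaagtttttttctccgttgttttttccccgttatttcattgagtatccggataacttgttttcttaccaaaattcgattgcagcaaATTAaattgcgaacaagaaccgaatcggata
twk-13, intron, chrV:12329230-12329430, minus strand: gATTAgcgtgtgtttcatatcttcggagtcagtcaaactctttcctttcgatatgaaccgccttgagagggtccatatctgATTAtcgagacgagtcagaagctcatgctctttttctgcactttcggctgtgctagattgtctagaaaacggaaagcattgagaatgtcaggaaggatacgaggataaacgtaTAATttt
twk-2, upstream, chrII:4453580-4453780, minus strand: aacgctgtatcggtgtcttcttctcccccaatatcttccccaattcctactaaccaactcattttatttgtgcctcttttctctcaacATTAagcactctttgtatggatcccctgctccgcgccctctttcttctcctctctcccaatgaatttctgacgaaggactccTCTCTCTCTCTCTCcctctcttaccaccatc
sup-9, upstream, chrII:2687028-2687178, minus strand: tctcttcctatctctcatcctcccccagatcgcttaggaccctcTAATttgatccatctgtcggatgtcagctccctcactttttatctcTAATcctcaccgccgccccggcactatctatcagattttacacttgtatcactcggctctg
twk-40, intron, chrIII:13490587-13490787, minus strand: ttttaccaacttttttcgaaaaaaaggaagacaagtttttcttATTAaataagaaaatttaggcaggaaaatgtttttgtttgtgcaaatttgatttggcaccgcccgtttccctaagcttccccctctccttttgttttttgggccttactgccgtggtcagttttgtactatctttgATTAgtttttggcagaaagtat

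The twk-13 run holds 3 TAAT matches, the sup-9 and twk-40 runs 2 each, and the twk-26 and twk-2 runs 1 each. The repeat in the twk-2 run is 14 bases long. None of the 5 runs holds TAATTA, the core at which homeodomain sites of both strands overlap. The only summit of the family with TAATTA in this window, the strongest of twk-49, is not among the 5. The absence thus follows from the choice of runs.

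Of the 47 channel genes, 12 had an optimal summit in their territory, 25.5% (95% exact Clopper-Pearson interval 13.9 to 40.3%, which treats genes as independent and covers counting error only). The same rule called 3917 of the 19973 protein-coding genes, 19.6%, so the share of the channel genes was near the background. The 12 genes were twk-49, twk-26, twk-13, twk-30, twk-5, twk-48, twk-2, unc-58, sup-9, twk-40, twk-21 and twk-36, in order of their strongest pooled signal. They held 18 summits, 1 each at 8 genes, 2 each at twk-48 and unc-58, and 3 each at twk-13 and twk-49. The median signal of the 18 was 137, against 138 over all optimal peaks. Of the 18, 9 were among the stronger 2390 of the optimal set. The signal of the family's peaks was thus close to that of the whole set.

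**Figure D1:**
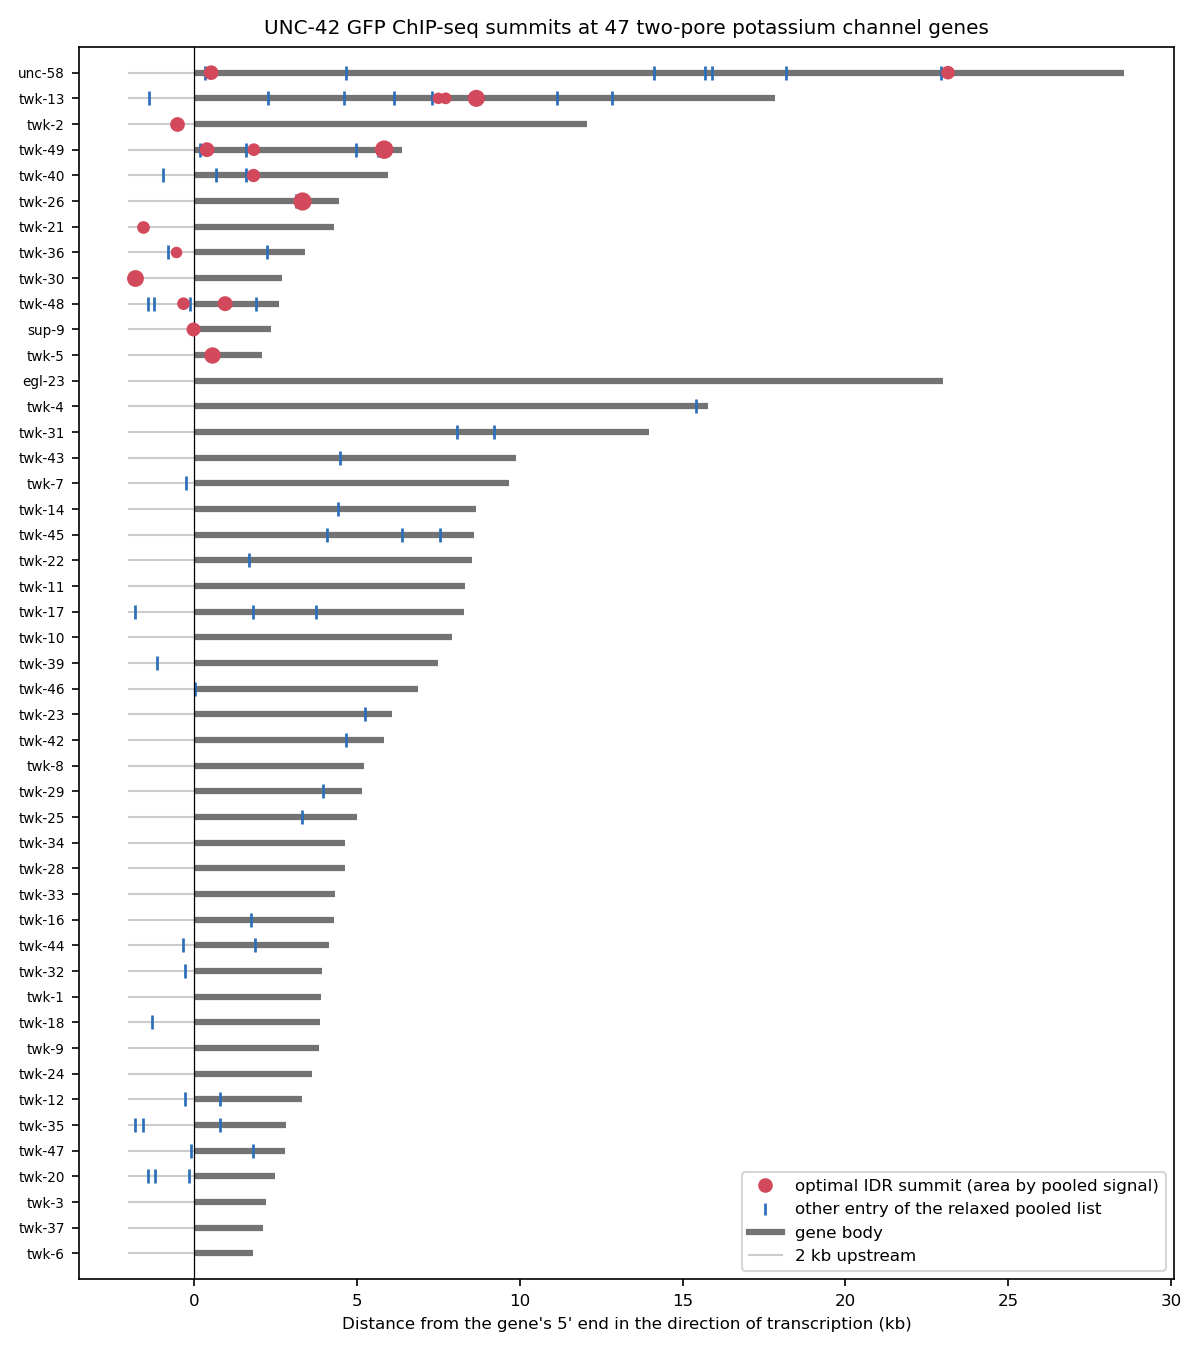
Each row is 1 of the 47 channel genes, aligned at its 5′ end (x axis, distance in kb along the direction of transcription), with the body in dark grey and 2 kb upstream in light grey; red dots are optimal summits, with area by pooled signal, and blue ticks are other entries of the relaxed pooled list. The 12 genes with an optimal summit are at the top, ordered by length like the 35 below, and egl-23 has no mark over its whole body.

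Among the channels with known roles, sup-9, a TASK-like channel of body wall muscle that works with UNC-93 and SUP-10 (II, 2684669 to 2687027, WBGene00006318), had its summit 51 bp upstream of its 5′ end, the closest of all. Its signal was 130 in the pooled list (rank 2635), 52.9 in replicate 1 (rank 3204) and 67.2 in replicate 2 (rank 2955). The summit also lay in the territories of nspf-1 and nspf-2. The gene was called in both replicates alone, and sup-9 thus had a peak of middling strength at its start.

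The channel gene unc-58, whose gain-of-function mutants are uncoordinated (X, 10104610 to 10133182, WBGene00006792), is the longest member at 28573 bp and had 2 intronic summits. The first lay 517 bp inside the gene with a pooled signal of 145 (rank 2231), 60.8 in replicate 1 and 85.3 in replicate 2. The second lay 23153 bp inside with a pooled signal of 123 (rank 2874), 55.4 in replicate 1 and 61.9 in replicate 2. Deep as it is, the second summit was 231 bp from an annotated start of another unc-58 transcript. The pooled list held 9 entries in the territory in all.

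For twk-40, known to set the membrane potential of the AVA command interneurons (III, 13486514 to 13492477, WBGene00006691), the only optimal summit was intronic and 1790 bp inside the gene. Its pooled signal was 116 (rank 3095), with 58.1 in replicate 1 (rank 2770) and 58.2 in replicate 2 (rank 3574). The pooled list held 4 entries in the territory. The replicate summits lay 33 and 69 bp from the pooled one.

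Of the other channels with known roles, 3 had no optimal summit. The gene egl-23, whose gain-of-function mutants are defective in egg laying (IV, 13989081 to 14012074, WBGene00001190), had no entry in the pooled list or in either replicate list over its 22994 bp and the 2000 bp upstream. Of the 141 protein-coding genes at least as long, 2 (1.42%) had no entry in any of these lists, egl-23 being 1 of them. This comparison was chosen after its values were seen. For twk-18, a channel of body wall muscle whose gain-of-function mutants are paralysed (X, 8988128 to 8991975), the pooled list held 1 entry, 1294 bp upstream with a signal of 37.1 (rank 12439), and the replicate 1 list none. The replicate 2 list held 2 for twk-18, the stronger at a signal of 23.5 (rank 10903), 2481 bp inside it. For twk-7, a channel known from locomotion (III, 8634067 to 8643739), the pooled list held 1 entry, 253 bp upstream with a signal of 43.6 (rank 9998), beside 22.5 in replicate 1 (rank 10607) and 19.3 in replicate 2 (rank 14578). Both pooled signals were below that of the weakest optimal peak, 81.6, as holds for every pooled entry outside the optimal set.

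The strongest peaks of the family lay at genes for which no role is given here. The strongest, with a signal of 247 (rank 789), was at twk-49 (II, 6492785 to 6499167, WBGene00019904). It had 117 in replicate 1 (rank 712) and 134 in replicate 2 (rank 848). Its summit was 5834 bp inside the gene, in its 3′ UTR, within the body of T28D9.1, whose 5′ end was the nearest at 931 bp. The territory of T28D9.11 held it as well. The other summits of twk-49 were intronic, 389 and 1829 bp inside, with pooled signals of 149 and 103.1. No other protein-coding gene's territory held them, and that at 1829 bp lay inside the noncoding RNA gene R05G9.4.

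At twk-26 (X, 3050369 to 3054824, WBGene00006679) the summit lay in an intron 3323 bp inside the gene. The pooled signal was 239 (rank 860), with 115 in replicate 1 (rank 743) and 123 in replicate 2 (rank 1019). Its replicate summits were within 1 bp of the pooled one, and no other protein-coding gene's territory held it.

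At twk-13 (V, 12320170 to 12337994, WBGene00006668) all 3 summits lay in introns, 7497, 7721 and 8664 bp inside. The strongest, at 8664 bp, had a pooled signal of 207 (rank 1168), with 117 in replicate 1 (rank 709) and 90.0 in replicate 2 (rank 1864). It was 603 bp from an annotated start of a twk-13 transcript. The other summits, at signals of 82.3 and 86.2, were close to the IDR limit, and that at 7497 bp had no entry within 100 bp in the replicate 1 list. Their peak intervals, 12330269 to 12330724 and 12330045 to 12330500, overlap, and each is counted as a separate summit here. The territory held 10 pooled entries, more than that of any other channel gene.

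The remaining summits were at 6 genes. At twk-30 (I, 8808965 to 8811647) the summit had a signal of 200, with 78.3 in replicate 1 and 115 in replicate 2, but lay 1828 bp upstream and only 286 bp from the 5′ end of F36A2.7. At twk-5 (II, 11483215 to 11485300) an intronic summit 554 bp inside had a signal of 189, with 103.1 in replicate 1 and 86.1 in replicate 2, and lay within the small nucleolar RNA gene B0334.12. At twk-48 (III, 9860730 to 9863328), the summit 948 bp inside had a signal of 152, with 71.1 in replicate 1 and 73.2 in replicate 2, and lay within the noncoding RNA gene K11H3.9 and a transfer RNA gene.

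The second summit of twk-48 lay 333 bp upstream, in the territory of gpdh-2 as well, with a signal of 31.7 in replicate 1 (rank 6298) and 72.9 in replicate 2 (rank 2595). At twk-2 (II, 4441103 to 4453151), the summit 529 bp upstream had a signal of 147, with 68.3 in replicate 1 and 85.5 in replicate 2. At twk-21 (X, 16299892 to 16304191) it lay 1574 bp upstream with a signal of 103.4, with 45.2 in replicate 1 and 54.1 in replicate 2. At twk-36 (V, 17743651 to 17747059) it lay 575 bp upstream with a signal of 82.1, with 34.6 in replicate 1 and 47.6 in replicate 2. The twk-36 peak, at rank 4743, was the weakest of the 18.

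**Figure D2:**
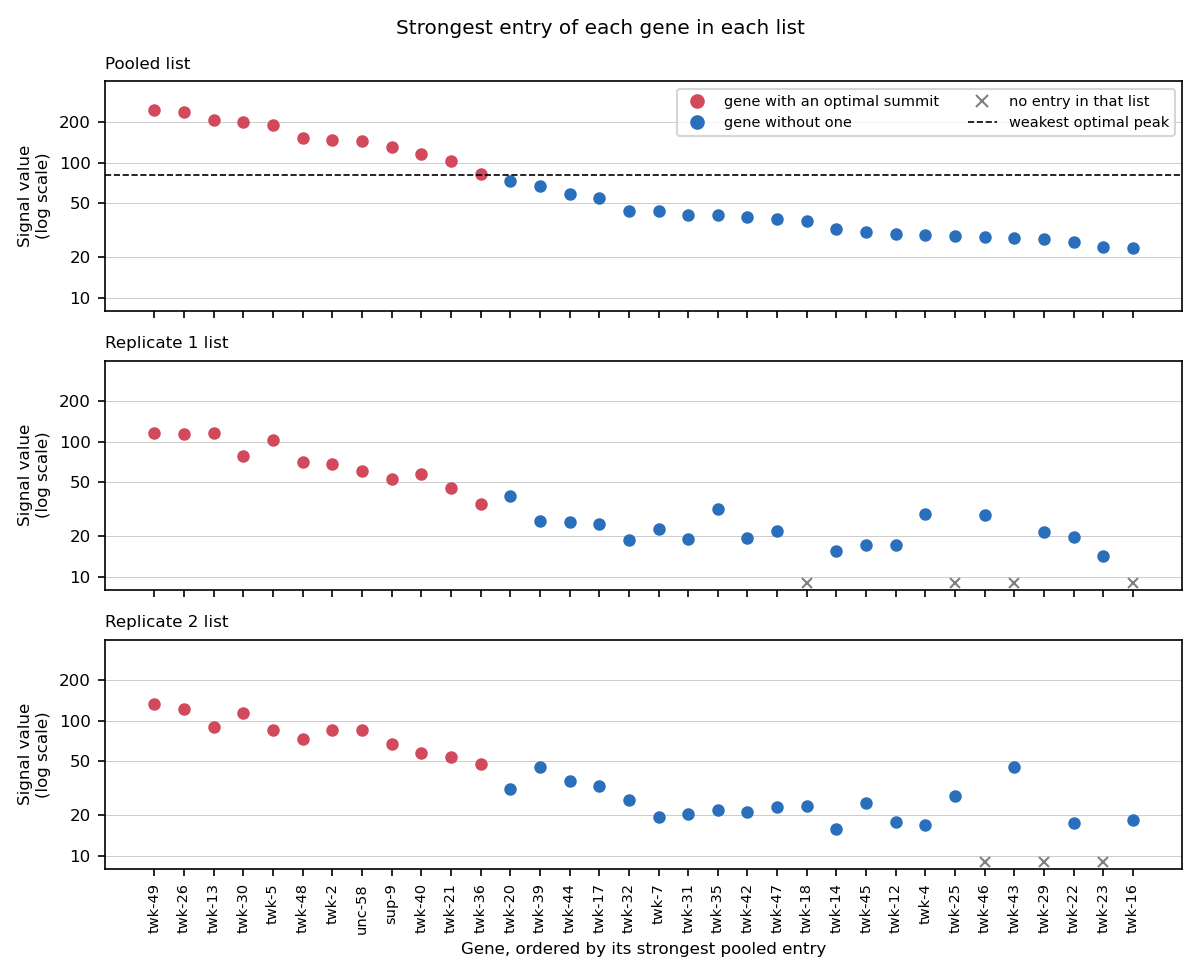
The strongest entry of each channel gene in the pooled, replicate 1 and replicate 2 lists (signal value, log y axis, 1 point per gene), ordered by pooled signal; red points are genes with an optimal summit, blue points genes without one, and grey crosses, drawn at the foot with no value of their own, genes with no entry in that list. The red points run from 247 at twk-49 to 82.1 at twk-36 in the pooled panel, and the blue ones begin at 73.2 at twk-20; the 13 genes with no pooled entry are not drawn.

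For the 35 genes without an optimal summit, the nearest one lay 1154 to 56809 bp from the gene body, with a median of 8146 bp. Of these genes, 22 had an entry in the relaxed pooled list and 15 had one in both replicate lists. The same shares over all protein-coding genes without an optimal summit are not given here, so these counts only describe the family.

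The pooled entries of these genes all had signals below the weakest optimal peak, since the optimal set is the top of the pooled list. The strongest lay 160 bp upstream of twk-20 with a signal of 73.2 (rank 5427), 39.9 in replicate 1 (rank 4629) and 31.3 in replicate 2 (rank 7520). Next came twk-39 at 66.8 (1138 bp upstream), twk-44 at 58.2 (336 bp upstream) and twk-17 at 54.8 (1814 bp upstream). The entries of twk-32 and twk-7 followed at 43.7 and 43.6, and the others ran down to 23.5 at twk-16. For twk-46 the nearest optimal summit lay 2049 bp upstream, just past the limit. The genes with no entry in any list were twk-1, twk-6, twk-8, twk-9, twk-10, twk-11, twk-28, twk-34, twk-37 and egl-23, which is 10 of 47 (21.3%), against 35.9% of all protein-coding genes.

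In the relaxed lists, 34 of the 47 channel genes had a pooled entry (72.3%, 95% exact interval 57.4 to 84.4%), against 52.6% of all protein-coding genes. In replicate 1 it was 31 (66.0%, interval 50.7 to 79.1%) against 54.3%. In replicate 2 it was 33 (70.2%, interval 55.1 to 82.7%) against 50.6%. The intervals treat genes as independent, and the differences were not tested. The relaxed lists hold background regions, and the channel genes were longer than most genes, with a median body of 4633 bp against 2027 bp.

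Gene length moved with the calls in the genome as a whole. Of all protein-coding genes, 13.2% were called when under 2000 bp long, 19.8% from 2000 to 5000 bp, 33.4% from 5000 to 10000 bp and 50.7% above that. Among the channel genes the counts in the same classes were 0 of 1, 7 of 23 (30.4%), 2 of 17 (11.8%) and 3 of 6 (50%). The channel genes lay above the background in the second class, below it in the third and beside it in the last. With so few genes each of the 95% exact intervals held the background share. Per length of sequence, the territories of the channel genes held 18 summits in 410 kb, 4.39 per 100 kb, against 4.60 in the territories of all protein-coding genes and 4.77 over the 6 chromosomes.

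**Figure D3:**
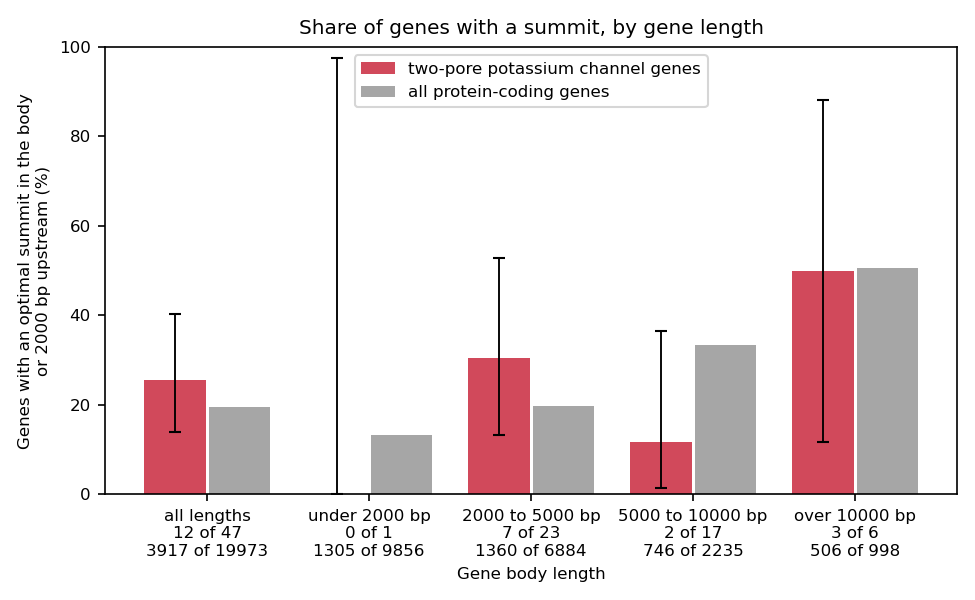
The share of genes with an optimal summit in their territory (y axis, percent, from 0) for the channel genes in red and for all protein-coding genes in grey, over all lengths and in 4 classes of gene body length; bars give the share, error bars the 95% exact Clopper-Pearson interval of the channel genes, and counts stand under each pair. Every interval of the channel genes spans the grey bar beside it.

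By chromosome, the called channel genes were 4 of 6 on II (background 19.2%), 2 of 7 on III (27.6%), 3 of 11 on X (21.8%), 1 of 5 on I (26.0%), 2 of 14 on V (11.6%) and 0 of 4 on IV (18.5%). Chromosome II, with twk-2, twk-5, twk-49 and sup-9, had the most. Chromosome V, with the most members, held 29.8% of the channel genes against 25.0% of all protein-coding genes.

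Within their territories more summits lay in the gene than upstream of it, though per length they were denser upstream. Of the 18, 12 were in the body, at 7 genes, and 6 were upstream. Counted per gene and length, the bodies of channel genes had 3.80 summits per 100 kb against 2.63 in all bodies, and their upstream stretches 6.38 against 8.73 in all upstream stretches. These rates rest on 12 and 6 summits, and the difference was not tested. By annotation class 11 of the 18 were in introns, 6 in intergenic sequence and 1 in a 3′ UTR, with none in coding exons or 5′ UTRs. Over all optimal summits the share in introns was 28.2% and that in intergenic sequence 59.0%. Coding exons held 1.74% of them, 5′ UTRs 3.24% and 3′ UTRs 1.42%, so few or none would be met among 18. The rule itself admits only gene bodies and adjoining sequence, and all optimal summits include those far from any gene.

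Counting from the gene's 5′ end, 8 of the 18 summits were 1000 bp away or less, and counting from any annotated transcript start of the gene, 11 were. Those that were added were at unc-58, twk-13 and twk-49; further starts can only shorten the distance, and the same count over all optimal summits was not made. Of the 18, 4 lay in the territory of another protein-coding gene too, and for twk-30 and sup-9 that was so of every summit, so these 2 genes were called only through shared sequence. The same share over all optimal summits is not given here. In the territories of all protein-coding genes, 3753 summits made 1696 pairs of gene and summit in bodies and 3489 upstream, so sharing occurred there too. A further 5 of the 18 (27.8%) lay inside a gene of another biotype, against 9.71% of all optimal summits, at twk-5, twk-13, twk-48, twk-49 and unc-58. Whether such overlaps bear on the signal was not tested.

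Of the 18 summits, 17 had an entry within 100 bp in both replicate lists, against 4596 of all 4780 optimal peaks, a set itself thresholded by IDR. Within 50 bp it was 13 of 18, with a replicate 1 match lost at sup-9, twk-49 and unc-58 and a replicate 2 match lost at twk-40. Within 200 bp it was 18 of 18. Among the 4780 strongest entries of each replicate were 14. For the counts at 50 and 200 bp and among the strongest entries, the share over all optimal peaks is not given here. Over the 17 matched within 100 bp, Spearman's rho between replicate signals was 0.89, a description across peaks that share 1 control and whose selection used both replicates. The order at the top differed, with twk-13 first in replicate 1 beside twk-49, at 117 each, and twk-49 first in replicate 2 at 134. With the 4780 strongest entries of replicate 2 alone, the same 12 channel genes were called. With those of replicate 1 alone 12 were called, of which 11 were shared, with twk-20 in place of twk-36.

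**Figure D4:**
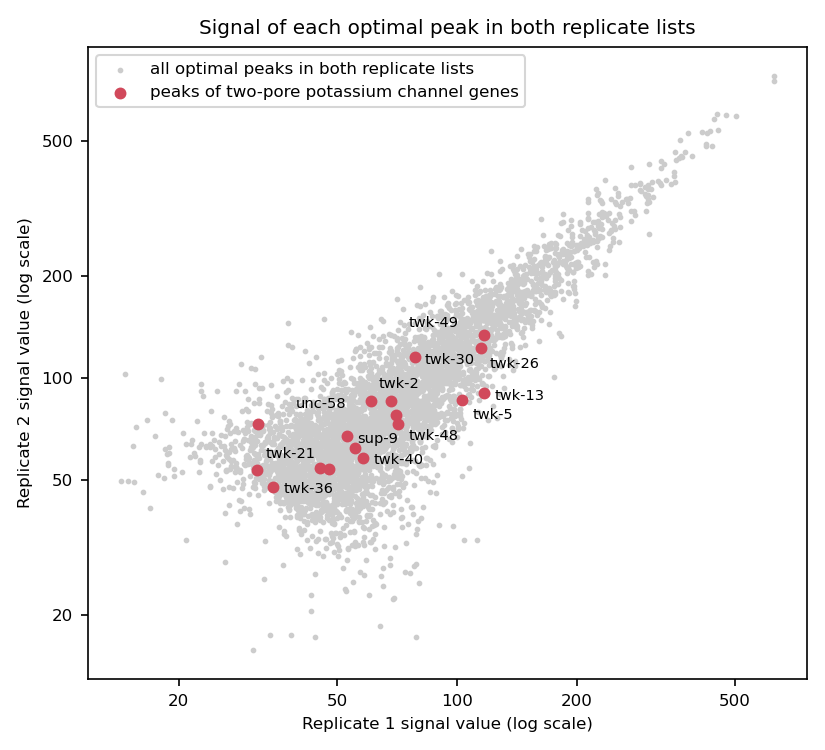
Signal in replicate 1 (x axis) and replicate 2 (y axis), both on log scales, for the optimal peaks found within 100 bp in both lists; grey points are all such peaks and red points the 17 of channel genes, with a gene name at its strongest peak. The red points lie within the grey cloud, between 31.4 and 117 in replicate 1 and between 47.6 and 134 in replicate 2.

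Sites for 3 motifs were counted on both strands in the window of 201 bp around each summit. TAATTA was found at 1 of 18, at twk-49 (5.56%, 95% exact interval 0.141 to 27.3%), against 10.9% of all optimal summits. GAGAGAGA was found at 1 of 18, at twk-2, against 11.7%. A palindrome of TAAT and ATTA with 3 bases between them was found at 0 of 18, for which the upper limit of the interval is 18.5%, against 1.88%. The single TAAT, on either strand, was found at 14 of 18 (77.8%) against 76.0%, a count added after the values were seen. The median GC content of the windows was 43.3% against 41.8%. The exact interval of each of the 3 motifs held the share of all optimal summits. With 18 summits these intervals are wide, and the differences were not tested.

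Genes that act with or against these channels were counted by the same rule. Of the SUP-9 partners and regulators unc-93, sup-10 and sup-18, 0 of 3 were called. Their bodies are 1727 to 4448 bp long, in length classes where 13.2 to 19.8% of all protein-coding genes were called. Of the sodium leak channel complex, which carries the opposing depolarising leak, 4 of the 4 genes matched by symbol were called, and nca-1 was not matched. They were nlf-1 at a pooled signal of 604 (rank 60), nca-2 at 450, unc-79 at 261 and unc-80 at 210, of which the first 3 exceed the strongest two-pore channel peak. Of 25 other potassium channel genes 14 were called (56.0%), with irk-3, an inward rectifier, at 839 (rank 16), unc-103, an ERG-type channel, at 322 and shl-1, a Shal-type channel, at 214. The median body of these 25 genes was 12145 bp and that of the leak complex 15192 bp, and 50.7% of all genes over 10000 bp were called. Both lists also hold shorter genes, such as kvs-3 at 3037 bp and nlf-1 at 4853 bp, in a class where 19.8% were called. The 50.7% is thus not matched in length to every gene listed. The difference between these lists and the two-pore channel genes was not tested.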

How the data were processed

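Peak lists in narrowPeak format on ce11 were used, as the authors deposited them: the optimal IDR set, the relaxed pooled list and a relaxed list per replicate, the relaxed lists made with 1 control file per the deposited text files. The signal value of each peak was deposited by the authors from their peak caller. Which aligner and caller were used is not given in the sources used here. The ce10 lists were not used here, and no coordinates were converted. By signal, the optimal set equals the first 4780 entries of the pooled list.

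Summits (start plus deposited offset, given 1-based) were assigned to Ensembl release 115 genes in Python 3.11.15 with scipy 1.17.1. All 47 members overlapped the RefSeq gene of the same symbol, and no peak ran past a chromosome end. Assignment was tested on simulated summits. Replicate entries were matched within 100 bp. A summit in several annotation classes took the first of 5′ UTR, CDS, 3′ UTR, intron and other gene.

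Members, lists and rules were chosen with earlier results of these data known. Every called member is named with its peaks, and known channels are given in full. For the other members the distance range is given, and not all of them are named in the text. No test was made, since there is 1 group and members are not replicates. Alternatives changed the upstream reach, the assignment, the overlap, the threshold, the replicates, the match distance and the motif window. Protein features were not analysed here.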

Additional observations from a re-analysis of the deposited data

How the results depend on the processing

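The count of 12 channel genes, beside 3917 of all protein-coding genes, ranged with the rule. With gene bodies only it was 7 (14.9%), beside 1087 (5.44%). With each summit given to the nearest 5′ end within 2000 bp it was 9 (19.1%), beside 2492 (12.5%), with 11 summits. With the 2390 strongest optimal peaks it was 8 (17.0%), beside 2207 (11.0%), with 9 summits. With all relaxed pooled entries it was 34 (72.3%), beside 10497 (52.6%), with 80 summits. A reach of 1000 bp gave 10 channel genes (21.3%), beside 16.0% of all genes, one of 5000 bp gave 17 (36.2%), beside 27.8%, and overlap with any base of the interval gave 13 (27.7%), beside 21.0%. Leaving out a replicate gave 12 in both cases, beside 3847 to 3875 genes, with 15 to 17 summits. The share of the channel genes was above that of all genes under each of these 9 alternatives, and gene length, which differs between them, was not adjusted for there. In each alternative, twk-5, twk-48, twk-49 and unc-58 were called. Windows of 200 bp to each side gave TAATTA at 16.7% of member summits, beside 19.9% of all optimal summits, GAGAGAGA at 5.56%, beside 16.1%, and the palindrome at 0, beside 2.93%. The single TAAT was not counted there. No paired analysis was possible because there is 1 group. Read depth is unknown, and 18 summits limit every share given.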
